A study of Mus musculus with 165 samples.

Results

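Of the 36255 genes in the table, 8 encode central proteins of cellular iron handling, and they were chosen by symbol: *Tfrc*, *Slc11a2*, *Slc11a1*, *Fth1*, *Ftl1*, *Slc40a1*, *Hmox1* and *Ireb2*. All 8 were found, all 8 passed the filter on low values, and each was followed in every library. The cells were PUER cells, a mouse hematopoietic progenitor line. The labels give bone marrow as its origin, and the text of the study gives both fetal liver and bone marrow. The line lacks *Spi1* in all groups and carries PU.1, the protein of that gene, fused to the estrogen receptor's ligand-binding domain. With this fusion, 4-hydroxy-tamoxifen (OHT) switches PU.1 on. The line is a culture model, and reads of the transgene and of the *Spi1* locus cannot be told apart in this table. RNA was sequenced. Undifferentiated cells in 5 ng/ml IL3 without OHT gave 3 libraries. Cells kept for 48 h in 10 ng/ml GCSF in place of IL3, without OHT, gave 3 libraries and are called GCSF 0h. The macrophage differentiation (IL3-OHT, 5 ng/ml IL3 with 200 nM OHT) gave 81 libraries and the neutrophil differentiation (GCSF-OHT, 10 ng/ml GCSF with 100 nM OHT) gave 78, in each case over 27 time points from 1 to 168 h after OHT. Each combination had 3 replicates except GCSF-OHT 96h, 112h and 152h, which had 2. Every time point was grown on a plate of its own, and cells were detached with trypsin after 24 h, so plate, harvest and time cannot be told apart. No time point after OHT had a matching group without it, so OHT and time in culture cannot be told apart either. IL3-OHT 96h and 144h, which the study left out, enter no test but those that name them. The plots, the orders of levels and the correlations hold all groups.

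Iron enters cells bound to transferrin through the transferrin receptor (TFR1, *Tfrc*), is pumped out of endosomes by DMT1 (*Slc11a2*) and, in phagocytes, out of phagosomes by NRAMP1 (*Slc11a1*). What is not used is stored in ferritin, a shell of heavy (*Fth1*) and light (*Ftl1*) chains, or leaves through ferroportin (*Slc40a1*), the known iron exporter of mammalian cells. Heme oxygenase 1 (*Hmox1*) frees iron from heme, which makes it central to macrophages that take up red cells. Iron regulatory proteins, among them IRP2 (*Ireb2*), bind hairpins called iron-responsive elements when iron is scarce. In the 5′ UTR such a hairpin lets them block translation of ferritin and ferroportin, and in the 3′ UTR of *Tfrc* it protects the transcript from decay. RNA levels therefore report on transcription and decay, while control of ferritin and ferroportin at translation is not seen by this assay.

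The hairpins were looked for in GENCODE vM21 transcripts (GRCm38) on the sense strand, as C, then NNNNN, then a loop of CAGTGN or CAGAGN, then NNNNN whose bases pair with the 5 before the loop, with G opposite T allowed. In each member the transcript with the longest coding sequence was used. They are shown because the matches lie in the 3′ UTR of *Tfrc* and in the 5′ UTR of *Fth1*, *Ftl1* and *Slc40a1*. The capitals mark the loop.

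Tfrc 3′ UTR element 1 (chr16:32631166-32631182, plus strand): cagtgaCAGAGTtcact
Tfrc 3′ UTR element 2 (chr16:32631225-32631241, plus strand): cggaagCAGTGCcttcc
Tfrc 3′ UTR element 3 (chr16:32631604-32631620, plus strand): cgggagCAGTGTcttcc
Tfrc 3′ UTR element 4 (chr16:32631669-32631685, plus strand): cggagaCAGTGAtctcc
Tfrc 3′ UTR element 5 (chr16:32631716-32631732, plus strand): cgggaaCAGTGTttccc
Fth1 5′ UTR element (chr19:9982738-9982754, plus strand): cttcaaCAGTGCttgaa
Ftl1 5′ UTR element (chr7:45459785-45459801, minus strand): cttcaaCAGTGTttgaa
Slc40a1 5′ UTR element (chr1:45925471-45925487, minus strand): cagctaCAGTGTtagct

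The letters matched in 4 of the 8 members, and in 621 of 21877 protein-coding genes (2.84%) at any place in any of their coding transcripts. The *Fth1* and *Ftl1* elements share their stems and differ in the loop. These letters were not found in the *Slc11a2*, *Slc11a1*, *Hmox1* and *Ireb2* transcripts used here. The search misses hairpins with a bulge or an unpaired base in the stem, so these members may still hold an element. A match is a description of the sequence and not proof of a working element.

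Values are reads divided by the size factor of the library, called normalized counts. Libraries held 14600246 to 33147945 reads on genes, and the lowest read number of any member in any library was 81, for *Slc11a1*. Between pairs of replicates the chi-square per gene, which sets their spread against counting error, was 2.29 to 73.2, with a median of 5.99. The spread over the genes was thus larger than counting error alone gives. Counting error still weighs on the lowest read numbers. The median coefficient of variation between replicates lay between 3.38% (*Fth1*) and 9.10% (*Slc11a1*). The study calls the replicates biological, and p-values measure the spread between these wells. Among 8 markers of erythroid cells, which take up much iron, the globin genes never passed a normalized count of 4.91, and the sum of all 8 was 19.99 to 132.9 in a library. Their sum was 44.9 to 48.1 in undifferentiated cells, 37.3 to 51.4 at GCSF 0h, 43.4 to 65.3 at IL3-OHT 168h and 33.9 to 45.3 at GCSF-OHT 168h. Of the markers of the labelled cell types, *Adgre1* was at 8.65 in undifferentiated cells 334 at IL3-OHT 168h and 255 at GCSF-OHT 168h, while *Csf1r*, the receptor for a macrophage growth factor, was at most at 56.3. *S100a9*, a neutrophil gene, was at 52666 in undifferentiated cells and 278296 at GCSF-OHT 168h, and *Ly6g* at 22.3 and 29.3, against 31.8 at IL3-OHT 168h. Other neutrophil genes were lower at GCSF-OHT 168h than in undifferentiated cells, *Elane* at 66130 against 108129 and *Camp* at 3148 against 3864, and *Ltf* was at 56.5 there and at 210.6 at IL3-OHT 168h. In bulk RNA, fewer cells that make a transcript and less of it per cell cannot be told apart.

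**Figure D1:**
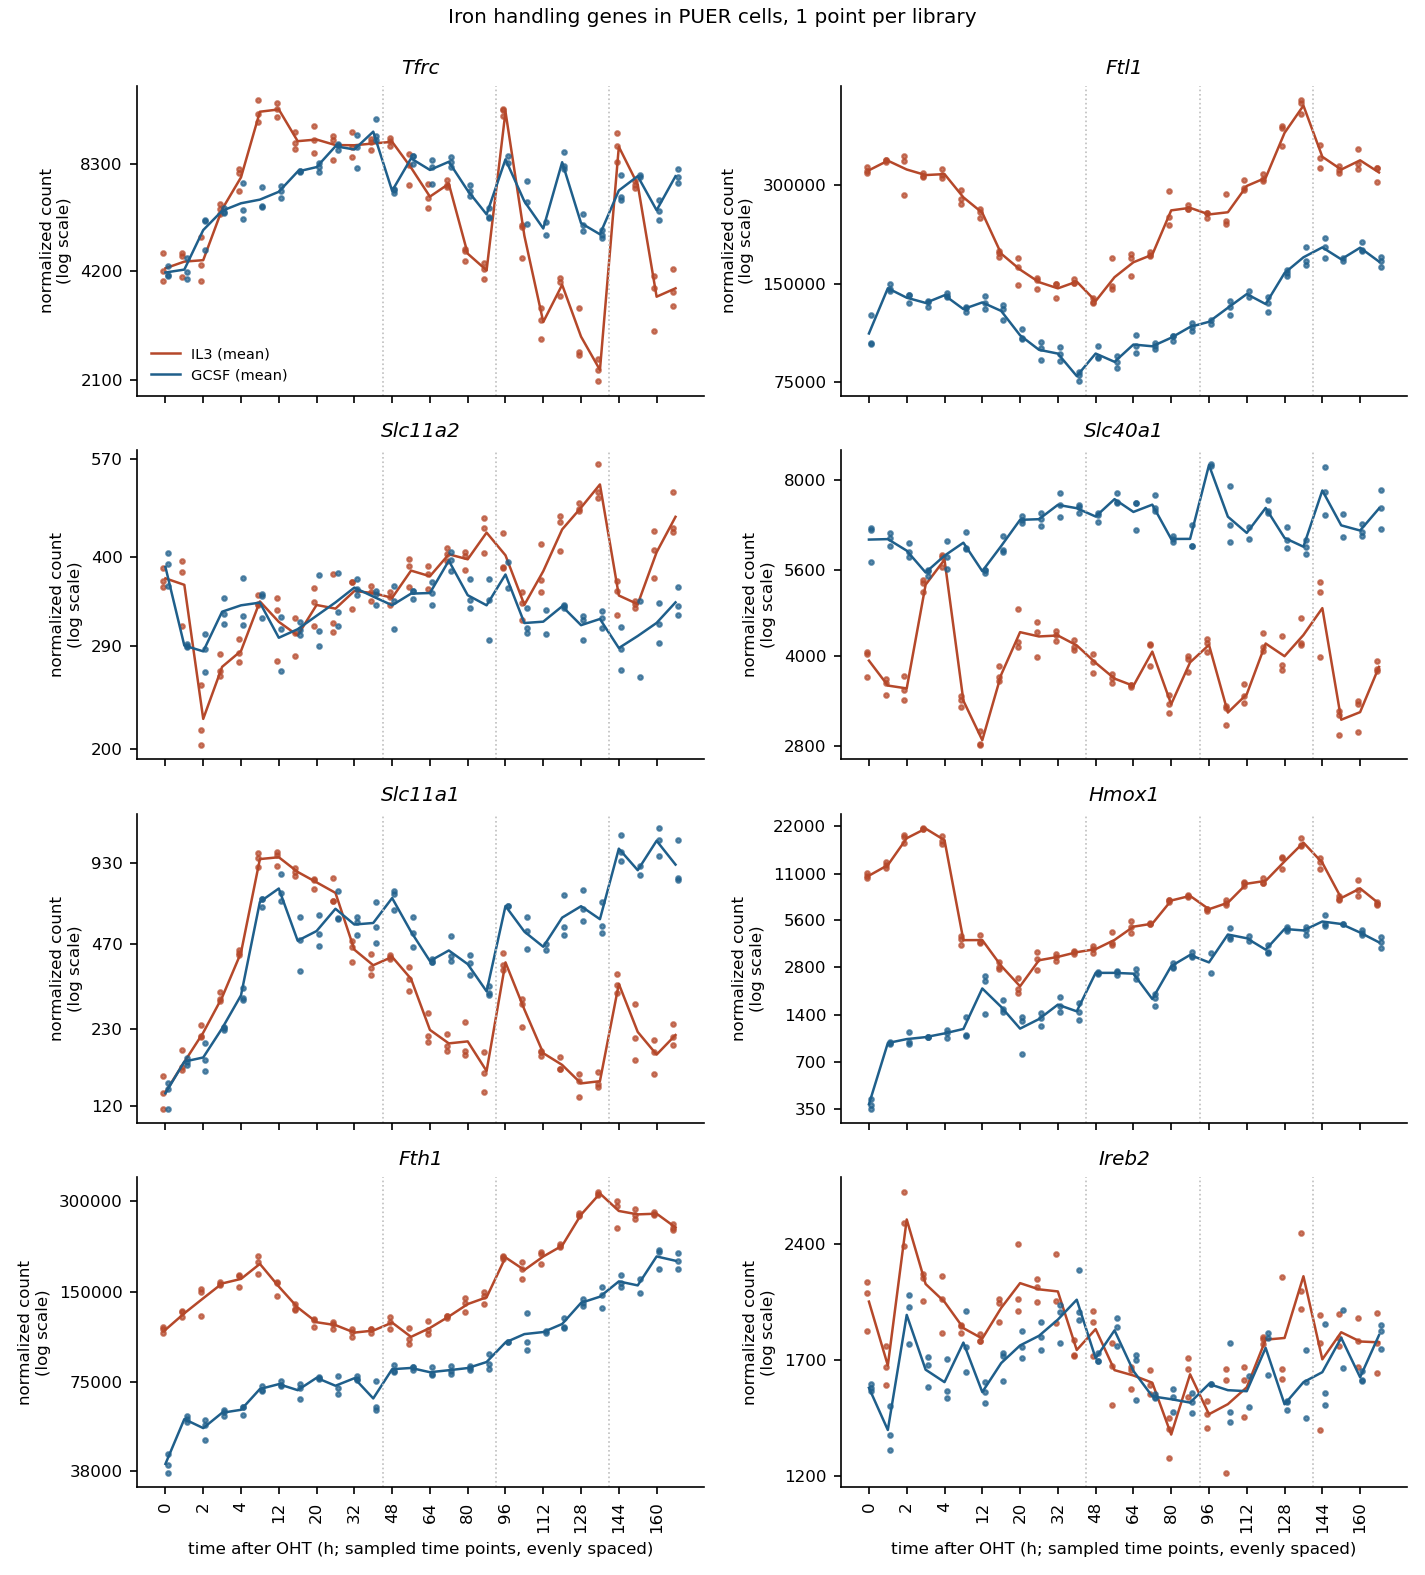
Normalized count (log scale) of each iron handling gene against time after OHT, with sampled time points evenly spaced, in IL3 (red) and GCSF (blue); points are libraries, lines are means, time 0 is undifferentiated cells for IL3 and GCSF 0h for GCSF, and dotted lines mark the replacement of medium after 40, 88 and 136 h. *Hmox1*, *Fth1* and *Ftl1* stay lower in GCSF at each time point, and *Tfrc* in IL3 jumps at 96 h and 144 h.

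Ferritin dominated the set. Per kilobase of the annotated transcript, undifferentiated cells held 344029 normalized counts of *Ftl1* and 120573 of *Fth1*, against 6801 of *Hmox1*, 1164 of *Slc40a1*, 876 of *Tfrc*, 350 of *Ireb2*, 122.4 of *Slc11a2* and 58.3 of *Slc11a1*. The order of the first 4 was *Ftl1*, *Fth1*, *Slc40a1*, *Tfrc* at GCSF 0h, where *Hmox1* per kilobase was 240. By GCSF-OHT 168h *Fth1* led with 204300 against 180987 for *Ftl1* on the same scale. Ferritin pseudogenes took few of these reads: *Ftl1-ps1* reached at most 0.714% and every other listed copy at most 0.0849% of the parent's value, but how reads were shared with such copies is uncertain.

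After GCSF pre-treatment *Hmox1* and both ferritin transcripts were lower and that of the iron exporter was higher. GCSF came in place of IL3, so the gain of GCSF and the loss of IL3 cannot be told apart. The study also uses the undifferentiated libraries as the start of pre-treatment, so the 48 h in culture cannot be told apart from it either. Genes were called by limma where the adjusted p was below 0.05 and the log2 fold change exceeded 0.58 in size, and 1 member rose and 3 fell from undifferentiated cells to GCSF 0h, where 33.7% of the 17414 genes tested were called. *Hmox1* stood at 10622, 11032 and 10356 in the undifferentiated libraries and at 371, 410 and 351 at GCSF 0h. The groups were far apart, and the fall was 28.3-fold (log2 fold change -4.82 ± 0.10 SE, adjusted p = 7.6e-72). *Ftl1* went from 330894, 326663 and 341502 to 119937, 98960 and 98109, with all GCSF 0h libraries below all others. That was a 3.16-fold fall (log2 -1.66 ± 0.07 SE, adjusted p = 3.7e-42). *Fth1* went from 112312, 114177 and 109548 to 43285, 37514 and 39787, again without overlap. It fell 2.79-fold (log2 -1.48 ± 0.07 SE, adjusted p = 2.56e-41). *Slc40a1* was at 3677, 4034 and 4060 before and 5782, 6604 and 6568 after GCSF, so that each GCSF library was above each undifferentiated one. It rose 1.61-fold (log2 0.69 ± 0.05 SE, adjusted p = 1.36e-22).

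The import and sensing transcripts were not called after pre-treatment. *Tfrc* (chr16:32608920-32632794, plus strand) was at 3937, 4205 and 4703 in undifferentiated cells and 4090, 4077 and 4337 at GCSF 0h. The ranges overlapped, with a log2 difference of -0.04 ± 0.09 SE (adjusted p = 0.768). For *Slc11a2* the difference was 0.06 ± 0.08 SE and for *Slc11a1* -0.01 ± 0.13 SE, both with overlapping libraries. *Ireb2* was lower by a log2 difference of -0.37 ± 0.08 SE (adjusted p = 7.29e-05), which is under the fold threshold.

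After OHT in IL3, libraries of *Slc11a1*, *Hmox1* and *Fth1* lay above all undifferentiated ones at each time point from 1 to 4 h, while those of *Tfrc* still overlapped them at 2 h. At 4 h 3 members rose and none fell (22.1% of genes called). *Slc11a1* (chr1:74375195-74386062, plus strand) was at 133.5, 154.4 and 116.99 before OHT and at 438, 429 and 446 at 4 h, without overlap. It had risen 3.25-fold (log2 1.70 ± 0.13 SE, adjusted p = 1.54e-23). *Tfrc* reached 6992, 8054 and 7837, all above the undifferentiated libraries, a 1.78-fold rise (log2 0.83 ± 0.09 SE, adjusted p = 7.02e-15). *Hmox1* (chr8:75093621-75100589, plus strand) was at 18950, 17024 and 17822, again above every undifferentiated library, and had risen 1.68-fold (log2 0.75 ± 0.10 SE, adjusted p = 6.56e-10). *Slc40a1*, with 5671, 5892 and 5951, and *Fth1*, with 170724, 155745 and 169217, lay above their undifferentiated libraries too. Their log2 differences of 0.57 ± 0.05 SE and 0.56 ± 0.07 SE were just short of the fold threshold.

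At IL3-OHT 12h 2 members had risen and 1 had fallen (28.7% of genes called). *Tfrc* was at its highest mean of the series, with 11208, 11766 and 12243, which overlap those of IL3-OHT 8h and 96h. None of these libraries overlapped the undifferentiated ones, and the rise was 2.75-fold (log2 1.46 ± 0.09 SE, adjusted p = 2.51e-30). *Slc11a1* also peaked in IL3 at this time, with 1027, 999 and 914, a 7.25-fold rise (log2 2.86 ± 0.13 SE, adjusted p = 1.74e-41). The groups of 8 h (1019, 901 and 975) and 12 h had overlapping libraries, so the time of the peak is not set between them. *Hmox1* had turned over: its libraries were at 4455, 4030 and 3998, all below the undifferentiated ones. It had fallen 2.57-fold (log2 -1.36 ± 0.10 SE, adjusted p = 6.94e-23).

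*Hmox1* in IL3 thus went through a rise, a deep fall and a second rise. Its mean was 21238 ± 234 (SD, n = 3) at 3 h, the highest of all 56 groups, 4157 ± 267 at 8 h and 2117 ± 244 at 20 h, the lowest in IL3. From there it was 3486 ± 84.2 at 40 h, 7420 ± 153.2 at 80 h and 17297 ± 1157 at 136 h. The libraries at 136 h, 18630, 16711 and 16552, all lay above those of 128 h and 152 h and below those of 3 h. At 168 h they were at 7253, 7071 and 6968, below every undifferentiated library.

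Late in IL3 the members diverged. At 80 h 1 member was called, upward (29.4% of genes called): *Slc11a1*, at 191.6, 244.5 and 184.9 (log2 0.61 ± 0.13 SE, adjusted p = 1.62e-05). At 168 h 2 members had risen and 1 had fallen (25.4% of genes called). *Fth1* was at 239963, 244421 and 250402, more than any undifferentiated library, and had risen 2.19-fold (log2 1.13 ± 0.07 SE, adjusted p = 4.24e-31). *Slc11a1* kept a 1.62-fold rise with 200.7, 240.6 and 213.96 (log2 0.70 ± 0.13 SE, adjusted p = 1.21e-06). *Hmox1* had fallen 1.503-fold (log2 -0.59 ± 0.10 SE, adjusted p = 6.49e-07). The *Hmox1* call sits at the fold threshold and was lost with edgeR (log2 -0.57) and without replicate 2 (log2 -0.56). *Tfrc*, at 3365, 4254 and 3692, overlapped the undifferentiated libraries by then (log2 -0.19 ± 0.09 SE, adjusted p = 0.0699).

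In GCSF the change after OHT was upward in each member that was called. At GCSF-OHT 4h 4 members had risen from GCSF 0h and none had fallen (5.62% of genes called). *Hmox1* was at 1122, 1070 and 998, above the 371, 410 and 351 of GCSF 0h, a 2.82-fold rise (log2 1.49 ± 0.10 SE, adjusted p = 8.61e-25). *Slc11a1* rose from 146.01, 116.9 and 137.9 to 298, 324 and 294 (log2 1.19 ± 0.13 SE, adjusted p = 5.33e-14), with no overlap. *Tfrc*, at 6192, 5859 and 7357, rose by log2 0.63 ± 0.09 SE (adjusted p = 3.3e-09) and *Fth1*, at 62116, 58312 and 61907, by log2 0.60 ± 0.07 SE (adjusted p = 3.72e-13). Both calls are close to the fold threshold. Without replicate 3 the differences were 0.56 and 0.58 and neither was called, and without replicate 2 that of *Fth1* (0.58) was not called either.

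At GCSF-OHT 12h the count was again 4 up and none down (11.4% of genes called). *Slc11a1* was at 678, 725 and 854, a 5.59-fold rise (log2 2.48 ± 0.13 SE, adjusted p = 9.54e-36). *Hmox1* was at 2452, 2284 and 1415, the widest replicate spread of any group for this gene (coefficient of variation 27.2%), yet all 3 were above GCSF 0h. At 80 h 4 members were up (16.4% of genes called), with *Tfrc* at 7243, 6791 and 6997 and *Slc11a1* at 363, 401 and 428, both above GCSF 0h in every library.

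At GCSF-OHT 168h 5 members had risen from GCSF 0h and none had fallen (24.8% of genes called). *Hmox1* was at 4359, 4028 and 3690, 10.6-fold above GCSF 0h (log2 3.41 ± 0.10 SE, adjusted p = 6.89e-57). *Slc11a1* reached 807, 824 and 1131, with 1 library above the others and all above GCSF 0h, a 6.79-fold rise (log2 2.76 ± 0.13 SE, adjusted p = 3.01e-40). *Fth1* was at 177603, 189750 and 202032 and had risen 4.72-fold (log2 2.24 ± 0.07 SE, adjusted p = 3.09e-58). *Tfrc*, at 7374, 7630 and 8042, and *Ftl1*, at 176434, 168840 and 180313, had risen 1.84-fold (log2 0.88 ± 0.09 SE, adjusted p = 3.57e-16) and 1.66-fold (log2 0.74 ± 0.07 SE, adjusted p = 2.6e-16). *Slc40a1* was not called, with overlapping libraries and a log2 difference of 0.18 ± 0.05 SE.

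The whole neutrophil path, from undifferentiated cells to GCSF-OHT 168h, changed 6 members, 4 up and 2 down (39.1% of genes called). *Slc11a1* was 6.74-fold, *Slc40a1* 1.82-fold, *Tfrc* 1.80-fold and *Fth1* 1.69-fold higher. *Hmox1*, despite its climb after OHT, ended 2.66-fold lower (log2 -1.41 ± 0.10 SE, adjusted p = 3.67e-24) and *Ftl1* 1.90-fold lower (log2 -0.93 ± 0.07 SE, adjusted p = 2.07e-22). The 2 ferritin chains therefore ended on opposite sides of their starting levels. This comparison shares libraries with those of pre-treatment and of OHT in GCSF.

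**Figure D2:**
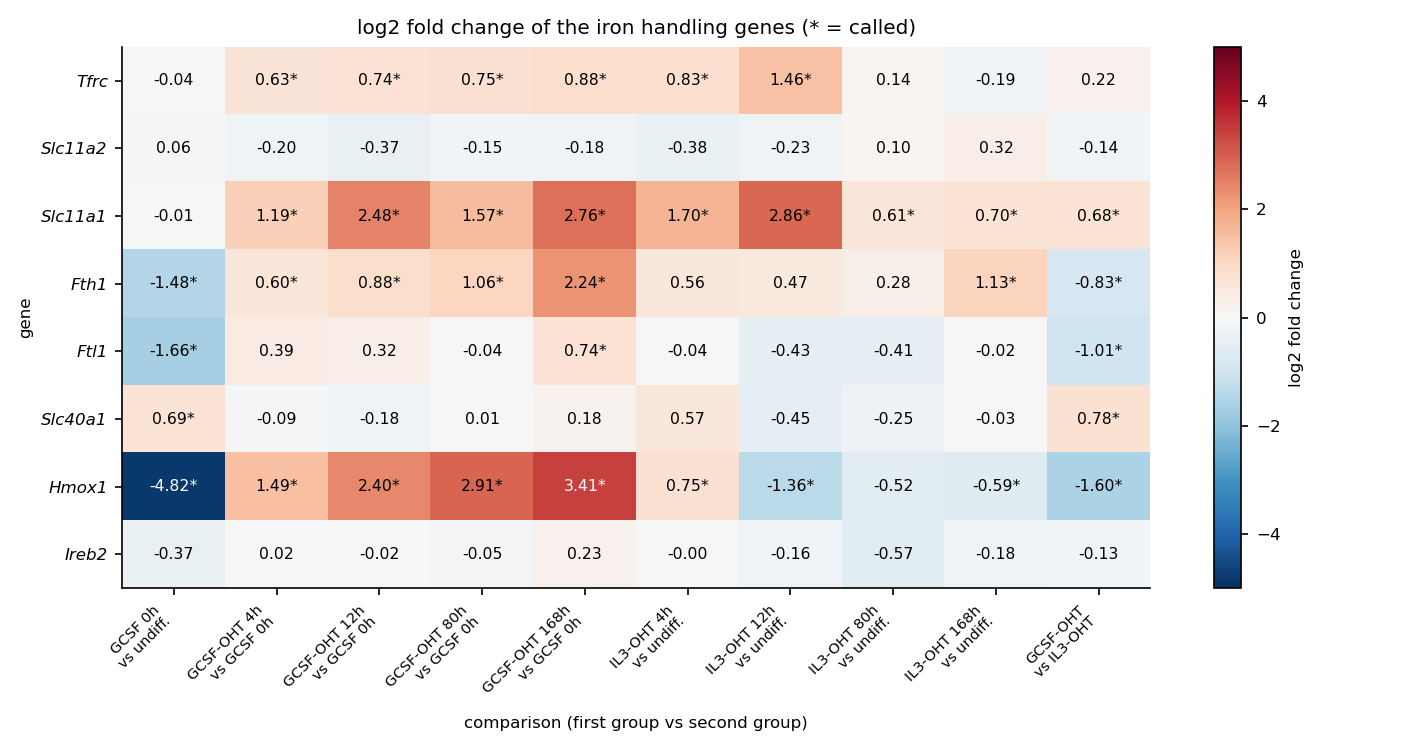
log2 fold change of each iron handling gene (rows) in 10 comparisons (columns, first group against second), with colour from blue (lower) to red (higher) and an asterisk at each call by limma. *Hmox1* runs from -4.82 after pre-treatment to 3.41 at GCSF-OHT 168h, while *Slc11a2* and *Ireb2* carry no asterisk.

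The import genes differed from each other over time. In IL3 *Tfrc* fell back from its peak of 11739 ± 518 at 12 h (SD, n = 3) to 4227 ± 227 at 88 h and to 2246 ± 162 at 136 h, the lowest of all groups, whose 2239, 2411 and 2087 lay below all undifferentiated libraries. In GCSF its mean was 5457 ± 572 at 2 h, against 4508 ± 643 in IL3. Its highest mean in GCSF came later than in IL3, 10193 ± 725 at 40 h (11016, 9647 and 9917). It did not return to the level of GCSF 0h: its lowest mean after 24 h was 5312 ± 135.3 at 136 h. Libraries at GCSF-OHT 120h, 8036, 8978 and 8175, stood above all those of 112 h and 128 h, and in IL3 the 3936, 4031 and 3598 of 120 h likewise stood above those of both neighbours. The 6 libraries of 120 h carry another series number in their library names than the rest, and its part in this difference was not tested.

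*Slc11a1* rose early in both conditions and ended higher in GCSF, whose libraries were all above those of IL3 at each shared time point from 32 h on. In IL3 its mean went from 980 ± 58.97 at 12 h to 145.2 ± 14.2 at 128 h, while in GCSF it was 316 ± 11.8 at 88 h and 1126 ± 132.9 at 160 h, with 991, 1257 and 1129. All 3 of these were above the GCSF-OHT 12h libraries. *Slc11a2* (chr15:100387898-100425072, minus strand) had a 2.34-fold range of group means and was lowest at 2 h in both conditions, at 251.6, 202.4 and 214.3 in IL3 and 303, 264 and 287 in GCSF. In IL3 it reached 560, 495 and 506 at 136 h, above every library of GCSF. All 27 pairs of neighbours in the order of its GCSF levels had overlapping libraries.

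*Ireb2* (chr9:54863789-54912530, plus strand) stayed within narrow limits. Its highest mean was 2586 ± 212.3 at IL3-OHT 2h (2556, 2390 and 2811) and its lowest 1358 ± 82.6 at IL3-OHT 80h (1267, 1380 and 1428), a 1.90-fold range over 56 groups. The libraries of these extremes were far apart, but each of the 55 pairs of neighbours in the order of levels overlapped. The difference of IL3-OHT 80h from undifferentiated cells, log2 -0.57 ± 0.08 SE, missed the fold threshold and passed it with upper-quartile scaling (-0.59) and without replicate 1 (-0.59).

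Ferritin in IL3 fell and then rose, with the light chain moving further. In undifferentiated cells *Ftl1* (chr7:45457944-45459884, minus strand) had a mean of 333020 ± 7645 (SD, n = 3), which went to 132689 ± 2499 at 48 h and 524897 ± 26979 at 136 h, where its libraries were at 545666, 494404 and 534622, above those of every other group. *Fth1* (chr19:9980598-9985098, plus strand) first rose to 185317 ± 13147 at 8 h, went down to 106111 ± 6756 at 56 h and then up to 317336 ± 4462 at 136 h (316730, 322070 and 313208), its highest too. In GCSF *Ftl1* was lowest at 40 h, 78316 ± 2707, and highest at 144 h, 193603 ± 13414, while *Fth1* was highest at 160 h, 196148 ± 15354.

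The balance of the 2 chains had fallen toward the heavy chain by 24 h in both conditions, and it differed between them at some later time points. In each library the normalized count of *Ftl1* was divided by that of *Fth1*, whose annotated transcripts are 968 and 929 bases long. The ratio was 2.86 to 3.12 in undifferentiated libraries and 2.47 to 2.77 at GCSF 0h. By 24 h after OHT it was 1.21 to 1.39 in IL3 and 1.27 to 1.32 in GCSF, which overlap, and all of these were below all libraries without OHT. At 80 h it was back at 1.65 to 2.23 in IL3, against 1.22 to 1.24 in GCSF. At 168 h the ratio was 1.26 to 1.41 in IL3 and 0.890 to 0.993 in GCSF, where every library had more normalized counts of the heavy chain. The ratio was followed as a description and no test was run on it.

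**Figure D3:**
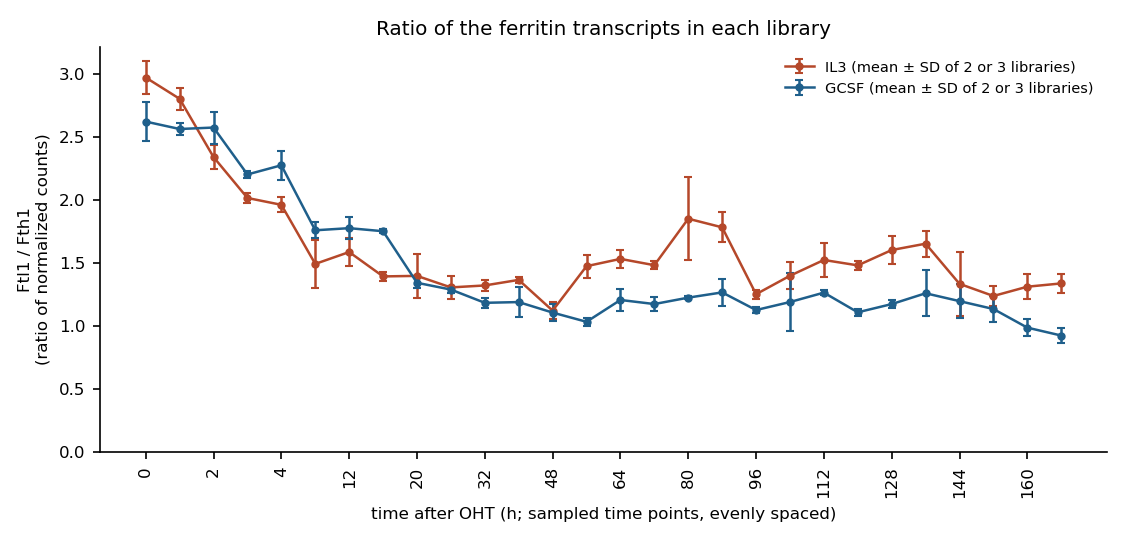
Ratio of the normalized counts of *Ftl1* and *Fth1* against time after OHT (sampled time points, evenly spaced) in IL3 (red) and GCSF (blue), as mean ± SD of 2 or 3 libraries. The lines drop from 2.97 and 2.62 at time 0 to 1.31 and 1.29 at 24 h, and the GCSF line ends at 0.925.

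*Slc40a1* (chr1:45908068-45926523, minus strand) kept the condition apart from the start. In IL3 its mean ran between 2869 ± 87.5 at 12 h (2825, 2969 and 2812) and 5838 ± 147.4 at 4 h, and in GCSF between 5550 ± 65.7 at 3 h and 8471 ± 54.8 at 96 h (n = 2). Only at 4 h did the libraries of the conditions overlap, and at the other 24 of 25 shared time points every GCSF library was above every IL3 library.

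Averaged over the 25 shared time points, 5 members differed between GCSF-OHT and IL3-OHT, 2 higher and 3 lower in GCSF (24.5% of genes called). *Hmox1* was 3.03-fold lower (log2 -1.60 ± 0.02 SE, adjusted p = 7.79e-97), *Ftl1* 2.02-fold lower (log2 -1.01 ± 0.01 SE, adjusted p = 2.45e-92) and *Fth1* 1.78-fold lower (log2 -0.83 ± 0.01 SE, adjusted p = 1.15e-87). For each of these 3 genes all GCSF libraries were below all IL3 libraries at each of the 25 time points. *Slc40a1* was 1.71-fold higher (log2 0.78 ± 0.01 SE, adjusted p = 2.05e-94) and *Slc11a1* 1.60-fold higher (log2 0.68 ± 0.03 SE, adjusted p = 1.92e-49). *Slc11a1* changed sides: its GCSF libraries were all higher at 16 time points and all lower at 7. The same holds for *Tfrc*, with 12 and 5, and its mean difference of log2 0.22 ± 0.02 SE was under the fold threshold. The doses of OHT differ between the conditions, so dose and cytokine cannot be told apart here.

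Whether the change after OHT differed between the 2 conditions was tested as an interaction, the change from GCSF 0h minus that from undifferentiated cells. Without matching groups lacking OHT, OHT and time in culture cannot be told apart in it. At 12 h 3 members were called, 2 positive and 1 negative (24.7% of genes called). *Hmox1*, which had fallen in IL3 and risen in GCSF, gave log2 3.76 ± 0.15 SE (adjusted p = 3.62e-45), *Ftl1* gave 0.75 ± 0.10 SE (adjusted p = 5.75e-10) and *Tfrc* -0.72 ± 0.13 SE (adjusted p = 5.09e-07). At 168 h 5 members were called, all positive (25.7% of genes called). They were *Hmox1* at 4.00 ± 0.15 SE, *Slc11a1* at 2.07 ± 0.18 SE, *Fth1* at 1.11 ± 0.09 SE, *Tfrc* at 1.07 ± 0.13 SE and *Ftl1* at 0.76 ± 0.10 SE, with adjusted p of 3.97e-10 at most. For *Hmox1*, *Fth1* and *Ftl1* the starting levels also differed, being lower at GCSF 0h, so a larger change in GCSF ended at a lower level than in IL3.

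Change at any time, by limma's F test with the fold threshold passed against the start at 1 time point or more, was called for 6 members in IL3 (69.7% of genes called) and 5 in GCSF (47.7%). *Ireb2* and *Slc40a1* were called in neither, but *Slc40a1* passed the fold threshold in IL3 with edgeR (0.59) and without replicate 2 or 3 (0.59 each), and *Ireb2* with upper-quartile scaling, without replicate 1 and with DESeq2 (-0.59 each). *Slc11a2* was called in IL3 and not in GCSF, and in IL3 its largest difference from the start was log2 -0.74. The shares of all genes are high, so these counts say little about the members.

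Part of the medium was replaced and OHT added anew at 40, 88 and 136 h, and the time points 8 h after the replacements at 88 and 136 h were compared with the mean of their neighbours. At IL3-OHT 96h 2 members stood above 88 h and 104 h (17.5% of genes called) and at IL3-OHT 144h the same 2 stood above 136 h and 152 h (15.4% of genes called). *Tfrc* had 3988, 4440 and 4252 at 88 h. It rose above them to 11686, 11238 and 11803 (96 h), and 104 h gave 4580, 5563 and 5645. No library of 96 h came near those of either side, and the difference was 2.46-fold (log2 1.30 ± 0.08 SE, adjusted p = 1.61e-31). At 136 h, 144 h and 152 h *Tfrc* had 2239, 2411 and 2087, then 10080, 9286 and 8427, then 7266, 7448 and 7146. The middle group was the highest, by log2 1.19 ± 0.08 SE over its neighbours (adjusted p = 1.7e-28).

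*Slc11a1* followed *Tfrc* in IL3 at both times. Its values were 135.4, 158.7 and 189.3 at 88 h. They were 379, 394 and 436 at 96 h, above the 283, 233 and 297 of 104 h, so the groups did not overlap (log2 0.95 ± 0.11 SE, adjusted p = 2.42e-13). At 144 h its 311, 333 and 365 were above the libraries of 136 h (140.4, 159.5 and 143.96) and of 152 h (177.6, 282.9 and 212.2), by log2 0.89 ± 0.11 SE (adjusted p = 4.67e-12). In GCSF, 1 member was called at 96 h (4.67% of genes called), *Slc11a1* with 652 and 646 against 329, 307 and 312 at 88 h and 525, 453 and 590 at 104 h (log2 0.68 ± 0.13 SE, adjusted p = 9.97e-06). At GCSF-OHT 144h none of the 8 members was called by limma (1.85% of genes called), nor by edgeR or DESeq2. The 2 members with an unadjusted p under 0.05 by limma, *Slc11a1* and *Slc40a1*, also passed adjustment and missed only the fold threshold. For *Slc40a1* the log2 difference was 0.26 ± 0.05 SE (adjusted p = 3.34e-05). There *Slc11a1*, at 1184, 1022 and 953, had a log2 difference of 0.56 ± 0.11 SE (adjusted p = 0.000144), which passed the fold threshold without replicate 2 (0.63) or 3 (0.61). *Tfrc* in GCSF, with 8722 and 8379 at 96 h, differed from its neighbours by log2 0.45 ± 0.09 SE, under the threshold. Whether the conditions differed in this was not tested, and medium, fresh OHT, handling and plate cannot be told apart. After the replacement at 40 h *Tfrc* in IL3 was at 9294, 9765 and 9613 at 48 h against 9533, 9101 and 9734 at 40 h, which overlap. In GCSF its 6884, 7062 and 7058 of 48 h lay below all libraries of 40 h, and neither step was tested.

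**Figure D4:**
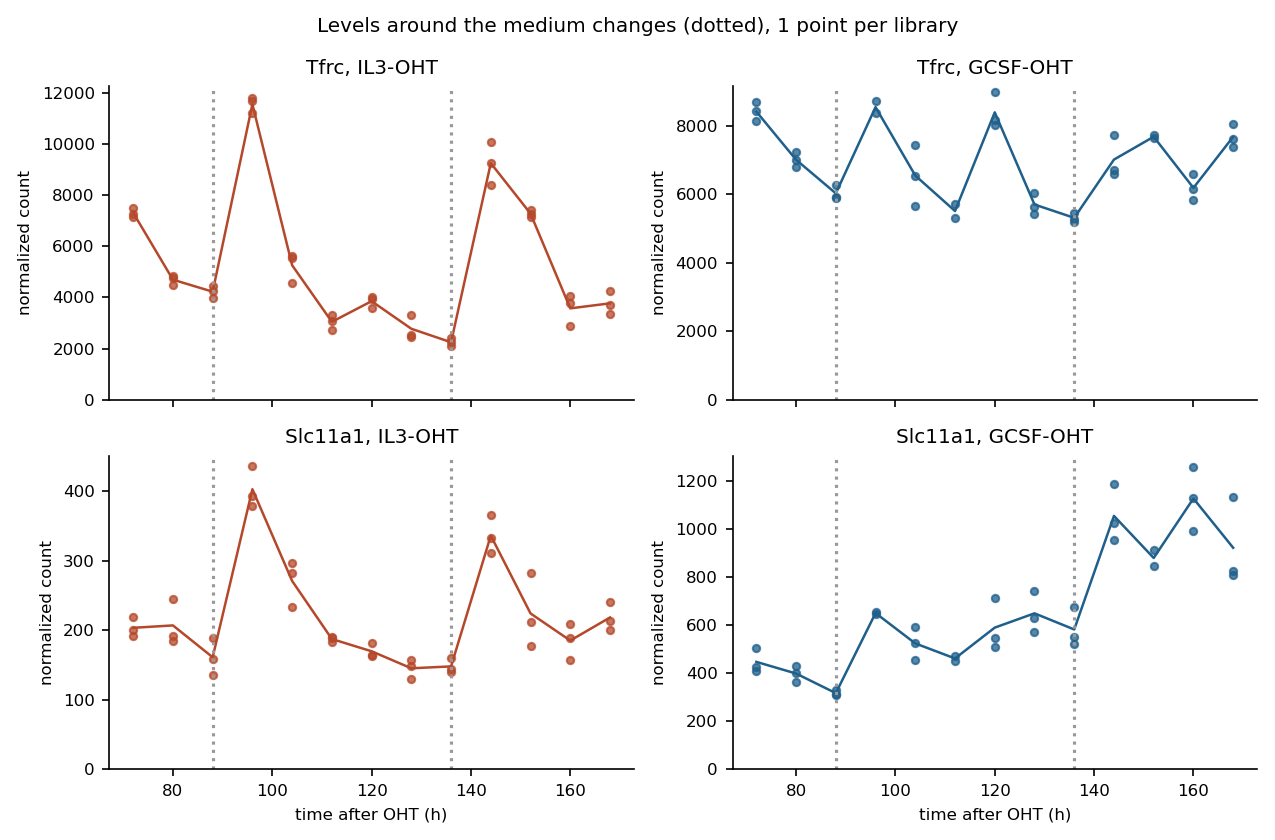
Normalized counts of *Tfrc* and *Slc11a1* from 72 to 168 h after OHT in IL3 and GCSF, with libraries as points, means as lines, and dotted lines at the replacements of medium at 88 and 136 h. In IL3 *Tfrc* lies at 11238 to 11803 at 96 h, above both neighbours, and at 8427 to 10080 at 144 h.

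A wider list of 53 iron and heme genes in 8 roles was counted in the same fit, 49 of them passing the filter on low values. *Ftmt*, *Hamp*, *Hjv* and *Bmp6*, among them the hormone hepcidin (*Hamp*), never exceeded a normalized count of 4.40. After pre-treatment 6 of the 49 rose and 13 fell (33.7% of all genes called), with a median log2 difference of 0.02 against -0.09 over all genes. At IL3-OHT 168h 7 rose and 8 fell (25.4% of all genes called, median 0.02 against -0.03), and at GCSF-OHT 168h 5 rose and 9 fell (24.8% of all genes called, median -0.02 against 0). Between the conditions 3 were higher and 4 lower in GCSF (24.5% of all genes called, median -0.08 against -0.06). The roles are described by their called genes.

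Among 9 genes of uptake and reduction, 5 fell and 1 rose with pre-treatment, where 33.7% of all genes were called. *Scara5*, a receptor for ferritin, fell from 710 ± 11.3 to 71.8 ± 24.3 (log2 -3.35 ± 0.20 SE, adjusted p = 2.37e-30) and was lower in GCSF than in IL3 over the shared time points (log2 -2.25 ± 0.04 SE). *Tfr2*, a transferrin receptor of liver and erythroid cells, went from 15.9 ± 10.46 to 0.311 ± 0.538, which is under the floor of 3 reads, and was called as well. *Steap4*, a metalloreductase, was higher in GCSF (log2 2.43 ± 0.11 SE) at low levels, with 14.9 ± 1.85 against 1.02 ± 0.15 at 168 h. *Steap3*, which reduces iron in endosomes, fell at GCSF-OHT 168h (log2 -1.02 ± 0.11 SE), where *Scara5* rose to 114.7 ± 21.4 (log2 0.71 ± 0.20 SE). *Slc39a8*, a zinc and iron transporter, fell with pre-treatment (log2 -0.68 ± 0.10 SE) and at IL3-OHT 168h (log2 -0.94 ± 0.10 SE). At IL3-OHT 168h *Mcoln1*, a lysosomal cation channel, rose (log2 0.71 ± 0.05 SE), as did *Scara5* (log2 0.68 ± 0.20 SE).

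In the roles next to ferritin, *Ncoa4*, which carries ferritin to lysosomes for breakdown, rose from 5533 ± 370 to 8794 ± 444 at IL3-OHT 168h (log2 0.67 ± 0.07 SE, adjusted p = 1.07e-15). *Pcbp2*, an iron chaperone and RNA-binding protein, fell with pre-treatment from 14350 ± 394 to 8056 ± 243 (log2 -0.83 ± 0.03 SE). On the export side, *Cp*, the ferroxidase ceruloplasmin, rose with pre-treatment from 2362 ± 65.3 to 7200 ± 589 and fell with OHT in GCSF, to 1050 ± 70.2 at 168 h (log2 -2.78 ± 0.09 SE, adjusted p = 8.96e-53). It fell in IL3 as well (log2 -1.45 ± 0.09 SE). *Tmprss6* was called at GCSF-OHT 168h at values under the floor in both groups, and no direction is drawn from it. *Fbxl5*, the iron-sensing ligase subunit that marks IRP2 for breakdown, rose in both: from 2645 ± 105.1 to 6351 ± 260 at IL3-OHT 168h (log2 1.26 ± 0.07 SE, adjusted p = 1.92e-31) and from 2268 ± 242 to 9128 ± 154.9 at GCSF-OHT 168h (log2 2.01 ± 0.07 SE, adjusted p = 2.23e-49). *Ireb2*, whose protein it acts on, was called in neither of these comparisons.

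Around heme, *Alas1*, which starts heme synthesis, rose with pre-treatment from 4581 ± 56.9 to 12350 ± 1115 (log2 1.43 ± 0.05 SE, adjusted p = 9.04e-56) and with OHT in IL3 to 9534 ± 135.3 (log2 1.06 ± 0.05 SE). *Alad*, a later enzyme of the pathway, fell at GCSF-OHT 168h (log2 -0.72 ± 0.10 SE). *Lrp1*, a receptor that takes up hemopexin-bound heme, fell with pre-treatment (log2 -1.39 ± 0.11 SE) and was higher at 168 h in both conditions. In GCSF it rose from 6283 ± 786 to 25041 ± 4352 (log2 1.99 ± 0.11 SE, adjusted p = 5.76e-33). In IL3 it rose from 16440 ± 713 to 36420 ± 2893 (log2 1.15 ± 0.11 SE). *Hpx* and *Cd163*, for hemopexin and the receptor for hemoglobin and haptoglobin, were called at means of at most 27.6 normalized counts. In mitochondria *Abcb10*, a transporter of the inner membrane, rose with pre-treatment (log2 1.051 ± 0.06 SE) and fell with OHT in GCSF (log2 -0.78 ± 0.06 SE). *Slc25a37*, mitoferrin, fell with pre-treatment (log2 -0.84 ± 0.05 SE) and at IL3-OHT 168h (log2 -0.65 ± 0.05 SE). *Abcb10* was also higher in GCSF over the shared time points (log2 0.61 ± 0.01 SE).

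Of the known regulators of *Hmox1*, *Bach1*, a heme-sensing repressor, fell with pre-treatment from 2106 ± 36.3 to 1252 ± 89.4 (log2 -0.75 ± 0.05 SE, adjusted p = 1.56e-25), as *Hmox1* did. It rose with OHT in GCSF to 2084 ± 113.96 (log2 0.74 ± 0.05 SE) and fell in IL3 to 1204 ± 77.3 (log2 -0.81 ± 0.05 SE). *Nfe2l2*, the activator NRF2, rose at GCSF-OHT 168h from 2542 ± 41.4 to 3957 ± 119 (log2 0.64 ± 0.06 SE), and *Mafg*, a partner of both, fell with pre-treatment (log2 -0.60 ± 0.05 SE).

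**Figure D5:**
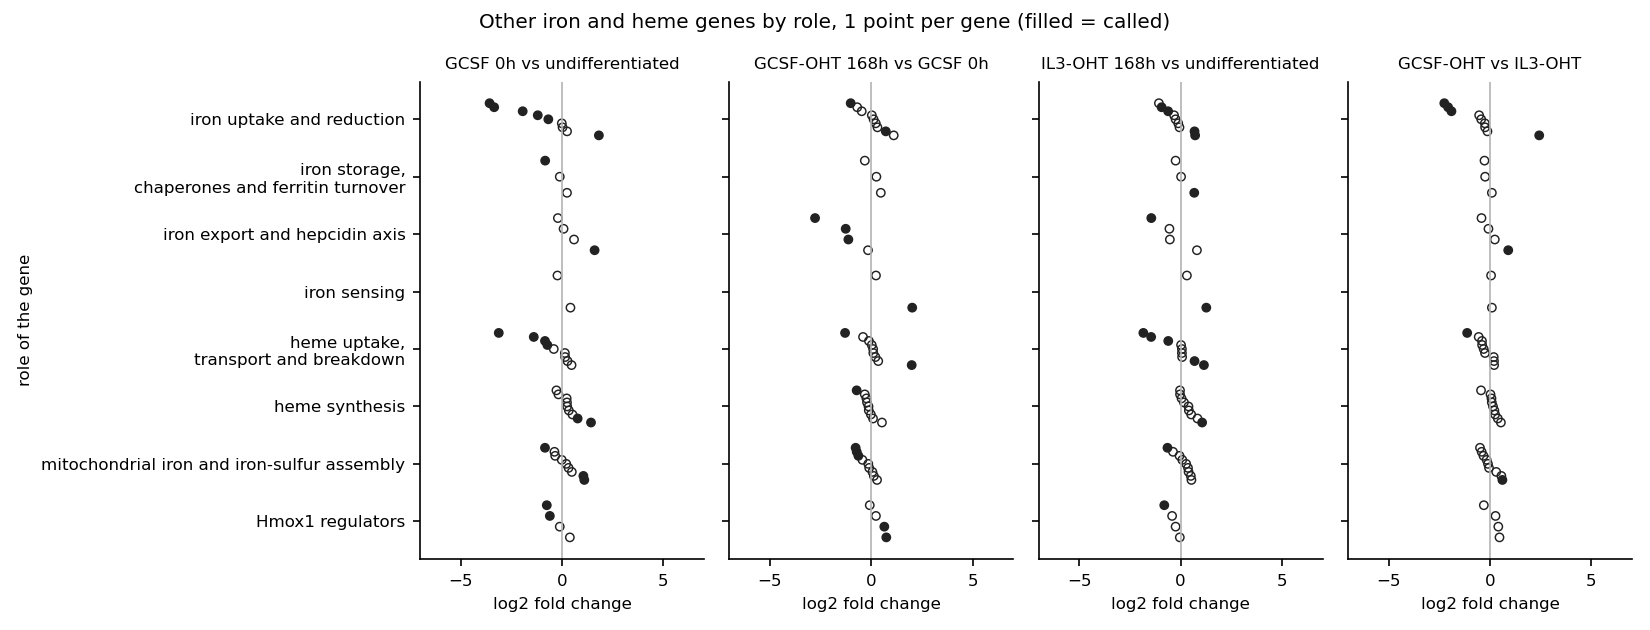
log2 fold change of the 49 other iron and heme genes tested, by role (rows) and comparison (panels), 1 point per gene, filled where called. Filled points lie on both sides of 0 in each panel, and *Scara5* and *Tfr2*, at -3.35 and -3.57, are the lowest after pre-treatment.

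The members' levels were also compared with each other over the 28 group means of a condition, as a description over means that share plates and medium changes. In IL3 *Tfrc* and *Slc11a1* had a Pearson's r of 0.85 on log2 means, *Ftl1* and *Hmox1* 0.85 and *Fth1* and *Ftl1* 0.78, while *Tfrc* ran against *Ftl1* (-0.68) and *Hmox1* (-0.64). Without IL3-OHT 96h and 144h the first of these was 0.86, and *Tfrc* had -0.76 with *Ftl1* and -0.72 with *Hmox1*. In GCSF *Tfrc* and *Slc11a1* had 0.55, *Ftl1* and *Hmox1* 0.46 and *Fth1* and *Ftl1* 0.62. *Tfrc* there had -0.46 with *Ftl1* and 0.19 with *Hmox1*. *Fth1* and *Hmox1* had 0.91 in GCSF and 0.53 in IL3. *Slc11a1* had 0.79 with *Fth1* and 0.71 with *Hmox1* in GCSF, against -0.33 and -0.66 in IL3. Over the 9928 genes compared, the pattern over all 56 means most like that of *Ftl1* was that of *Ctsd* (r = 0.97), followed by *Furin* and *Tnfrsf23* (0.96 each). Most like *Hmox1* were *B4galt5* (0.94), *Ankrd50* (0.93) and *Lgals3* (0.92), and most like *Fth1* were *Cd53* (0.93), *Hopx* (0.92) and *Usp32* (0.92). *Slc40a1* was closest to *Zcchc8*, *Tmem131l* and *Pdzd8* (0.92 each), *Tfrc* to *Miga1* (0.90), *Flna* (0.89) and *Magohb* (0.87), and *Slc11a1* to *Lurap1* (0.90), *Skap2* (0.88) and *Anxa1* (0.87). *Slc11a2* was closest to *Fam53b*, *Coq5* and *Josd1* (0.87, 0.85 and 0.83) and *Ireb2* to *Styx*, *Mga* and *Ppp4r2* (0.80, 0.80 and 0.79).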

How the data were processed

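RNA of PUER cells was sequenced, and libraries were grouped by the condition, time point and replicate number in their labels. The GCSF 0h titles name OHT, but their descriptions place them ahead of it, so they count here as untreated with OHT. The authors quantified transcripts with Salmon on GRCm38 and divided counts by DESeq2's size factors, so the deposited values are normalized signal. How transcripts were summed to genes is not given in the sources used here. Dividing by the step of 1 read returned whole reads (100% of values within 0.01) for the count tests. The floor of 3 reads was 1.96 to 5.51 normalized counts and covers counting error only.

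Members and gene lists were chosen with earlier results of these data known. All 8 members are named, with the 2 called genes of each role of largest absolute log2 fold change in 4 comparisons, copies whose symbols begin with Fth or Ftl, and the 3 genes most like each member. Some genes that this rule names are not reported here. Genes that reached 5 normalized counts in 1 library were tested with limma 3.58.1 in R 4.3.3 (lmFit, eBayes with trend, log2(normalized count + 1), 1 mean per condition and time point), with Benjamini-Hochberg adjustment over 17414 genes, and likeness used genes averaging 100 normalized counts or more. IL3-OHT 96h and 144h, excluded by the study, were tested in a fit of all libraries. On simulated data for IL3-OHT 168h over 17414 genes, 99.5% of 200 genes changed by log2 1 were called, with 5 others. The changed genes were drawn from the better expressed ones, and all genes were given the same dispersion. The result therefore says nothing of genes near the floor. The alternatives were pseudocounts of 0.5 and 5, no filter, a mean of at least 10, upper-quartile scaling, each replicate left out, the compared groups alone, the replicate number as a block, edgeR 4.0.16 (quasi-likelihood, TMM) and DESeq2 1.42.0.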

Additional observations from a re-analysis of the deposited data

Results flagged for a closer look

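The change after OHT differed between GCSF and IL3, by limma's interaction term, in 3 of 8 iron handling genes at 12 h (24.7% of all genes called). At 168 h it differed in 5 of 8 (25.7%). At 12 h the difference of log2 fold changes, GCSF minus IL3, was 3.76 for *Hmox1*, 0.75 for *Ftl1* and -0.72 for *Tfrc*. At 168 h it was 4.00 for *Hmox1*, 2.07 for *Slc11a1*, 1.11 for *Fth1*, 1.07 for *Tfrc* and 0.76 for *Ftl1*. *Tfrc* thus had the larger rise in IL3 at 12 h and in GCSF at 168 h. The starting points differ for *Hmox1*, *Fth1* and *Ftl1*, which were lower after GCSF pre-treatment, and OHT was given at 200 nM in IL3 and 100 nM in GCSF. The part of either in these differences was not tested. Without matching groups lacking OHT, OHT and time in culture cannot be told apart. No group had enough libraries for a check of single libraries that stand apart.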

How the results depend on the processing

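Of 152 member results, 130 kept call and direction under all alternatives run, and 63 of the 66 that were called stayed called. The exceptions were *Hmox1* at IL3-OHT 168h and *Tfrc* and *Fth1* at GCSF-OHT 4h. Leaving out single replicates gave 3 to 5 members called at IL3-OHT 4h (5 without replicate 2), 1 to 2 at IL3-OHT 80h (2 without replicate 1), 2 to 4 at GCSF-OHT 4h (2 without replicate 3) and 0 to 1 at GCSF-OHT 144h (1 without replicate 2 or 3). Upper-quartile scaling gave 2 at IL3-OHT 80h. Over all genes, the share called at GCSF-OHT 144h went from 1.85% to 1.10% with the compared groups alone, which hold fewer samples.

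Directions turned only in results that were not called. Leaving out single replicates, the log2 difference of pre-treatment ran from -0.0806 to 0.00526 for *Tfrc* and from -0.135 to 0.182 for *Slc11a1*. For IL3-OHT it ran from -0.0388 to 0.0325 for *Ireb2* at 4 h, from -0.0510 to 0.00971 for *Ftl1* and from -0.0759 to 0.00185 for *Slc40a1* at 168 h. Around the medium changes in IL3 it ran from -0.00467 to 0.133 for *Slc11a2* and from -0.0795 to 0.00410 for *Ftl1* at 96 h, and from -0.150 to 0.0171 for *Fth1* at 144 h. In GCSF it ran from -0.0368 to 0.0651 for *Ireb2* at 4 h, from -0.0960 to 0.0735 for *Ftl1* and from -0.0565 to 0.0487 for *Slc40a1* at 80 h, and from -0.162 to 0.0466 for *Ireb2* at 144 h. With edgeR the difference was 0.000847 for *Tfrc* and 0.0160 for *Slc11a1* after pre-treatment and 0.0129 for *Ireb2* at IL3-OHT 4h, where DESeq2 gave 0.000303. Upper-quartile scaling gave 0.00108 for *Slc11a1* after pre-treatment and -0.0371 for *Slc40a1* at GCSF-OHT 80h. The causes were not tested.

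Pairing by replicate number was looked for in pre-treatment, IL3-OHT 168h, GCSF-OHT 168h and the whole neutrophil path. Deviations of same-numbered libraries from their group means correlated between -0.05 and 0.08 there. Little pairing by number was thus seen, and the other comparisons were not looked at for it. With the replicate block 0 of 152 member calls changed, and the members called stayed at 4 for pre-treatment, 3 for IL3-OHT 168h and 5 for GCSF-OHT 168h. At IL3-OHT 168h the deviations of each library correlated best with those of its own number, a hint from the data. Chosen after seeing the data, leaving out 120 h or adding 96 h and 144 h changed no member call. At the lowest read numbers, 81 for *Slc11a1* and 160 for *Slc11a2*, counting error limits the precision, and elsewhere the small number of libraries per group does.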
